A study of Mus musculus with 14 samples.

Results

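This account follows 10 genes that carry or answer glucocorticoid and fasting signals, Fkbp5, Tsc22d3, Sgk1, Ddit4, Klf15, Klf9, Zbtb16, Cited2, Irs2 and Ppargc1a, through the regrowth of mouse liver. They were found on the array as probe sets with 1 gene symbol that is one of these names, which gave 10 of the 12393 genes named on the array, with 25 of its 22690 probe sets. Each gene is described by the probe set with the highest mean intensity over all 14 arrays, and the other 15 probe sets serve as a check. The arrays were hybridised with total RNA of mouse liver labelled with biotin, 2 arrays each for normal liver and for liver 4, 8, 12, 36, 48 and 72 h after partial hepatectomy, an operation that takes out some of the liver lobes. Livers of 4 to 6 mice were pooled for an RNA extraction. Strain, sex, age, feeding and time of day are not given in the labels, and no sham-operated animals were analysed here. Whether paired arrays of a time hold separate pools is not recorded, so the spread behind each p-value is that among these arrays and may be technical.

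Glucocorticoids are adrenal steroid hormones that rise in fasting and in stress such as surgery. They bind the glucocorticoid receptor, which is held ready by Hsp90 and its cochaperones and which then binds DNA as a dimer at a palindromic response element. In liver the hormone raises genes of glucose production and amino acid breakdown, and genes such as Fkbp5 and Tsc22d3 that restrain the receptor or inflammation. Fasting adds glucagon, which acts through cyclic AMP and the coactivator encoded by Ppargc1a, while insulin opposes it through the receptor substrates Irs1 and Irs2.

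The sequences around the start sites of these genes were searched for exact matches to the receptor's element and other motifs. Of the 10 genes, 9 had an entry in the RefSeq promoter windows of build GRCm38.p6, 16 windows in all of 250 bases before to 50 bases after a start site. Both strands were searched for 5 motifs in these and in all 32851 windows. Of the 16 windows, 6 were of Sgk1, 3 of Tsc22d3 and 1 of each remaining gene. The palindrome of the receptor's element, taken as TGTTCT preceded by its reverse complement with 3 free bases between, was in 0.00913% of all windows (3 of them), and among the 10 genes in 1 window of Sgk1. The core TGTTCT alone, which overlaps the palindrome, was in 19.0% of all windows and in 4 of the 16, from Sgk1 and Tsc22d3. The E-box CACGTG, which clock and MYC-family proteins bind, was in 7.15% of all windows and in 5 of the 16, from Klf15, Fkbp5, Cited2, Irs2 and Sgk1. The FOXO core GTAAACA was in 3.65% of all windows and in 1 of the 16, that of Klf9. The cyclic AMP response element TGACGTCA was in 1.79% of all windows and in 0 of the 16. A match describes the letters only, not a bound site or a cause. A window without a match says nothing of inexact sites or of sites outside the window, which were not searched.

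Shown are the Sgk1 window chr10:21993640-21993939 (plus strand) with the palindrome in capitals, and the windows of Klf15, chr6:90462326-90462625 (plus strand), and Fkbp5, chr17:28486100-28486399 (minus strand), with each E-box in capitals. The last 2 were chosen because these genes moved in opposite directions below.
Sgk1: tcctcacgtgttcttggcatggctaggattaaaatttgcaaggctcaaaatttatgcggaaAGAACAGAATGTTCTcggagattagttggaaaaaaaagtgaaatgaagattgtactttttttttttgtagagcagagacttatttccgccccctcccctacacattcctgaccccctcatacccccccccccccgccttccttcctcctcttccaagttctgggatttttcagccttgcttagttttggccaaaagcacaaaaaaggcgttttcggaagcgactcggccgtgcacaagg
Klf15: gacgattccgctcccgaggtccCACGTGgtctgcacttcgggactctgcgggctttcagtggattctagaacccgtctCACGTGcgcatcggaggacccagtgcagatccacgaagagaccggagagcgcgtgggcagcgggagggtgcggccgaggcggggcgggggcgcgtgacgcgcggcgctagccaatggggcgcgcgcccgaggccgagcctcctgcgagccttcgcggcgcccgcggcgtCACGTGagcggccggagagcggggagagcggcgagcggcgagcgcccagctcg
Fkbp5: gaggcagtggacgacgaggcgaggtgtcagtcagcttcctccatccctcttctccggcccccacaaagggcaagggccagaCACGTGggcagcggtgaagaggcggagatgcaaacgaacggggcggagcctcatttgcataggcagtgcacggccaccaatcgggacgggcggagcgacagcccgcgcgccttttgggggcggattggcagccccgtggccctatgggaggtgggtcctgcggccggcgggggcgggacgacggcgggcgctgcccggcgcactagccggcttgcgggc
The palindrome of Sgk1 begins 189 bases before the start site. The E-boxes of Klf15 begin 228, 172 and 3 bases before it, and that of Fkbp5 169 bases before it.

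All 10 probe sets were above background on all 14 arrays, background being the 95th percentile of the bacterial control probe sets of an array (43.6 to 138). The 9 measured hepatocyte markers were above background on every array too. Pyruvate carboxylase, a control probed near both transcript ends, gave 5′ to 3′ ratios of 0.091 to 0.137 in replicate 2 of 8, 12, 36 and 72 h and of 0.305 to 0.584 on the 10 remaining arrays. Where a value is given "with the block", the model carried this split as a covariate, and "without the 4 arrays" leaves 1 array at each of these times. Muscle and acinar (exocrine pancreas) transcripts were high in the 4 and 8 h groups. The summed intensity of 20 muscle markers was 20327 to 21739 at 4 h, 12810 to 13851 at 8 h and 3294 to 3872 at 12 h, against 943 to 1728 in normal liver. The sum of 17 acinar markers was 44919 to 45258 at 4 h, 309736 to 333812 at 8 h and 2385 to 5156 at 12 h, against 1434 to 2574 in normal liver, and it was 49265 in replicate 2 of 36 h. None of these markers was listed at 0 on any array.

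The 10 genes did not move as a group. Changes are differences of log2(intensity + 57) from a limma fit to all 14 arrays, with standard error (SE), and a call is a Benjamini-Hochberg adjusted p under 0.05 over all 13576 probe sets tested. By the moderated F test over the 6 times, 6 of the 10 changed at some time, namely Fkbp5, Tsc22d3, Ddit4, Klf15, Klf9 and Cited2, where 13.1% of all probe sets did. Fkbp5 rose, Klf15, Tsc22d3 and Cited2 fell, and Sgk1, Zbtb16, Irs2 and Ppargc1a passed no test. Against normal liver there were 12 calls in 60 comparisons, from 5 genes. The count was 2 of 10 at 4 h (2.42% of all probe sets), 3 at 8 h (9.59%) and again 3 at 12 h (12.2%). It was 2 at 36 h (4.17%), 2 at 48 h (2.32%) and 0 at 72 h (2.49%). At 72 h the smallest adjusted p among the genes was 0.0600, for Klf15, and 4 of the 10 had an unadjusted p under 0.05 in limma. The median log2 change of the 10 genes was -0.05 at 4 h, 0.26 at 8 h and 0.31 at 12 h, then 0.06 at 36 h, -0.26 at 48 h and -0.35 at 72 h. Over all probe sets it was 0.00, 0.09 and 0.12 at the first 3 times and 0.07, 0.12 and 0.11 at the later ones.

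**Figure D1:**
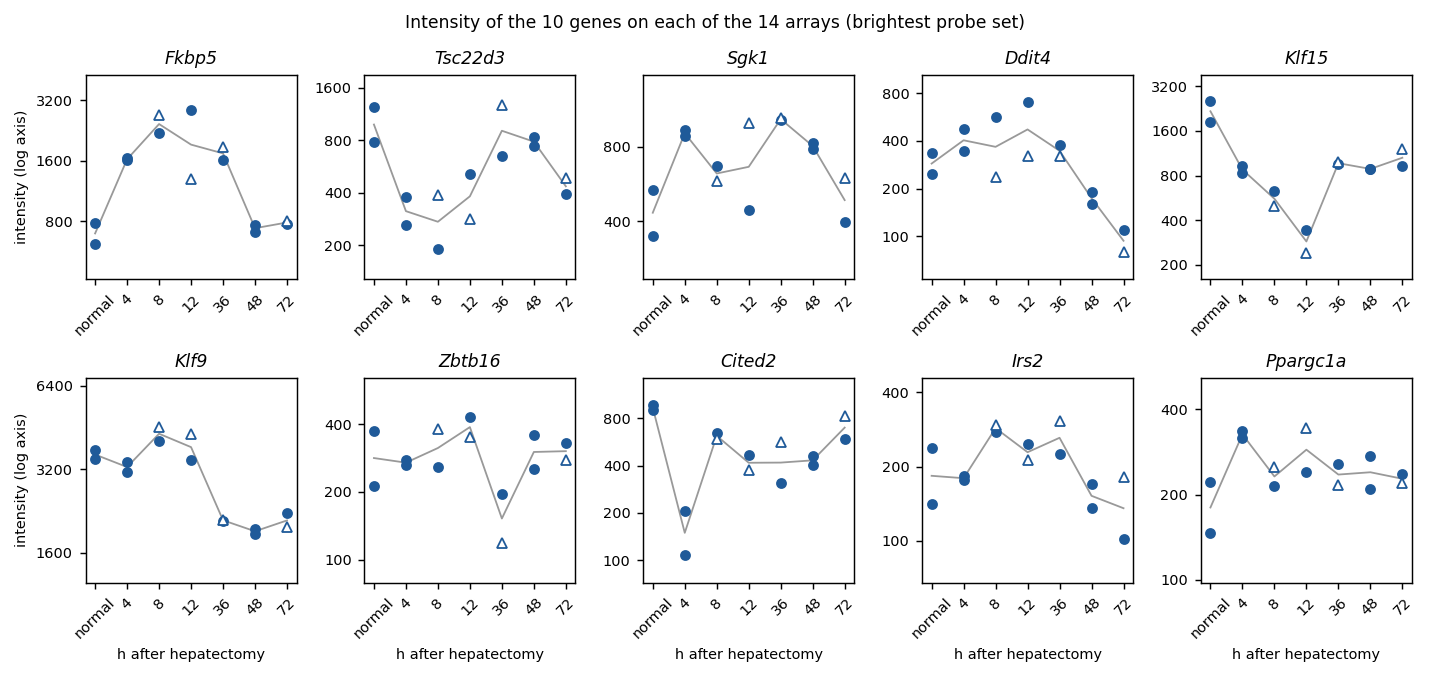
Intensity (log axis) of the brightest probe set of each gene in normal liver and by h after hepatectomy. Each point is 1 of the 14 arrays, open triangles are the 4 arrays with a low 5′ control signal, and the line joins geometric means. The Klf15 points fall to 239.1 and 345.4 at 12 h, and the Fkbp5 points lie at 1291.2 or above at 4 to 36 h.

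**Figure D2:**
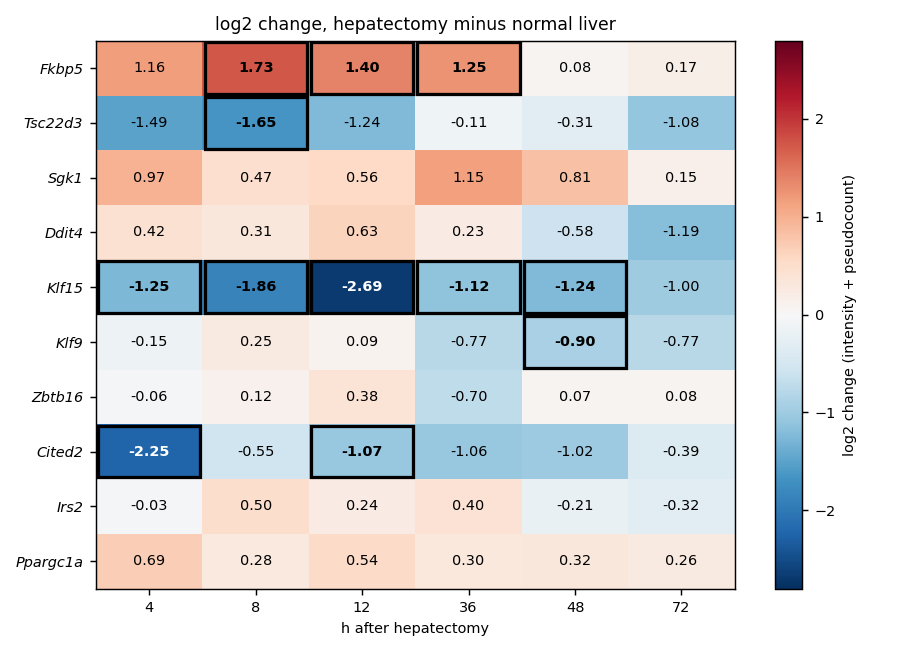
Log2 change of each gene (rows) at each time after hepatectomy (columns, h) relative to normal liver, with boxes around the 12 values that passed limma's test. Klf15 is boxed at 5 of 6 times and Fkbp5 at 3, in opposite directions.

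Fkbp5 encodes an Hsp90 cochaperone that lowers the affinity of the glucocorticoid receptor for its hormone, and its gene is itself a target of the receptor. Its intensity was 615.5 and 784.0 in normal liver, 1605.1 and 1643.7 at 4 h, 2202.7 and 2681.9 at 8 h, 2856.2 and 1291.2 at 12 h, 1610.9 and 1873.1 at 36 h, 768.7 and 707.8 at 48 h, and 770.9 and 804.6 at 72 h. Every array from 4 to 36 h was above both arrays of normal liver, and the 48 and 72 h arrays overlapped normal liver. Fkbp5 rose by 1.73 at 8 h (SE 0.31, adjusted p = 0.00480), a mean of 2442 ± 339 against 700 ± 119 in normal liver (SD, n = 2 each, 3.49-fold). It rose by 1.40 at 12 h (adjusted p = 0.0130) and by 1.25 at 36 h (adjusted p = 0.0428). At 4 h the change of 1.16 (SE 0.31, adjusted p = 0.0771) did not pass.

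The 8 h call was lost without replicate 2 of the 8 h group (1.59, adjusted p = 0.0546) and the 12 h call without replicate 1 of the 12 h group (0.84, adjusted p = 0.0517). The 36 h call was lost on leaving out any array other than those of 12 h (1.09 to 1.42, adjusted p of 0.0540 to 0.290), and with the block (1.33, adjusted p = 0.0524).

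The other probe set of Fkbp5 read 336.4 and 333.7 in normal liver, 797.2 and 920.2 at 4 h, 1058.9 and 623.6 at 8 h, 1553.2 and 348.2 at 12 h, 1019.4 and 477.9 at 36 h, 464.4 and 403.9 at 48 h, and 517.5 and 255.6 at 72 h. At 8, 12, 36 and 72 h its lower array was each time the one with the low 5′ control signal. It passed at no time in the fit over all arrays (1.15 at 8 h, adjusted p = 0.209). With the block, a setting chosen after seeing the data, it rose by 1.22 at 4 h and 1.73 at 8 h, and by 1.62 at 12 h and 1.53 at 36 h (adjusted p of 0.0464, 0.00615, 0.00733 and 0.0192).

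Tsc22d3 encodes GILZ, a leucine zipper protein that mediates part of the anti-inflammatory action of glucocorticoids. Its intensity was 779.6 and 1245.8 in normal liver, 376.6 and 262.6 at 4 h, 191.7 and 390.0 at 8 h, 512.8 and 285.3 at 12 h, 648.9 and 1270.7 at 36 h, 741.6 and 834.2 at 48 h, and 392.3 and 485.5 at 72 h. All arrays of 4, 8, 12 and 72 h lay below normal liver, while 36 and 48 h overlapped it. Tsc22d3 fell by 1.65 at 8 h (SE 0.39, adjusted p = 0.0198), with a mean of 291 ± 140 against 1013 ± 330 in normal liver (SD, n = 2 each). The call was lost without replicate 2 of normal liver (-1.33, adjusted p = 0.176) or replicate 1 of 8 h (-1.22, adjusted p = 0.163). Changes of -1.49 at 4 h, -1.24 at 12 h and -1.08 at 72 h did not pass (adjusted p of 0.0714, 0.0563 and 0.203).

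The next brightest probe set of Tsc22d3 had a smaller SE. It read 851.7 and 1032.5 in normal liver, 292.2 and 233.3 at 4 h, 290.7 and 274.1 at 8 h, 226.2 and 116.9 at 12 h, 771.6 and 756.8 at 36 h, 411.6 and 370 at 48 h, and 365.3 and 346.8 at 72 h. It fell at every time except 36 h, by 1.64 at 4 h, 1.55 at 8 h and 2.16 at 12 h, then by 1.15 at 48 h and 1.27 at 72 h (SE 0.25, adjusted p of 0.00456, 0.00253, 3.51e-04, 0.0315 and 0.0172). At 12 h it was above background on 1 of 2 arrays. At 36 h it was at -0.28 (adjusted p = 0.629). The third probe set was the dimmest, above background on 11 of 14 arrays, and passed at no time.

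Sgk1 encodes the serum- and glucocorticoid-regulated kinase. It read 536.1 and 348.8 in normal liver, 880.8 and 931.8 at 4 h, 669.6 and 579.6 at 8 h, 442.1 and 994.1 at 12 h, 1023.3 and 1042.8 at 36 h, 782.2 and 827.7 at 48 h, and 397.6 and 594.8 at 72 h. The arrays of 4, 8, 36 and 48 h lay above both normal arrays, and 12 and 72 h overlapped them. The changes at 4 h (0.97, SE 0.33, adjusted p = 0.182) and 36 h (1.15, adjusted p = 0.0722) did not pass, nor did the F test (adjusted p = 0.151). Their 95% intervals, 0.26 to 1.69 and 0.44 to 1.87, leave out 0 because they are not adjusted for the number of probe sets. Sgk1, the gene whose window holds the palindrome printed above, had 1 probe set on the array.

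Ddit4 encodes REDD1, an inhibitor of the growth-promoting kinase complex mTORC1 that is induced by stress and glucocorticoids. It read 246.2 and 336.2 in normal liver, 474.9 and 342.9 at 4 h, 568.0 and 237.0 at 8 h, 699.1 and 319.1 at 12 h, 374.9 and 320.2 at 36 h, 189.5 and 160.0 at 48 h, and 109.6 and 80.2 at 72 h. The arrays of 4 h were above and those of 48 and 72 h below both normal arrays, and the pairs at 8 and 12 h were far apart. At 8, 12, 36 and 72 h the array with the low 5′ control signal was the lower of the pair. The F test passed (adjusted p = 0.0428, and 0.00817 with the block), but not without the 4 arrays. No single time passed against normal liver, with -1.19 at 72 h (SE 0.38, adjusted p = 0.145) the furthest from 0. The 3 early times together were above the 3 late times, as given further on. Ddit4 had 1 probe set on the array, so no other could serve as a check.

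Among the transcription factors, Klf15 changed most. It encodes a zinc finger protein that promotes amino acid breakdown and glucose production in the fasted liver. The gene had 1 probe set on the array, so no other could serve as a check. Klf15 read 1838.7 and 2557.5 in normal liver, 929.7 and 827.0 at 4 h, 629.0 and 494.6 at 8 h, 345.4 and 239.1 at 12 h, 957.6 and 980.0 at 36 h, 887.6 and 884.6 at 48 h, and 923.0 and 1203.6 at 72 h. Every array after hepatectomy was below both normal arrays, the 12 h pair lay lowest, and from 36 h on the arrays stood at 884.6 to 1203.6. Fewer cells that express a gene and less of its RNA per cell cannot be told apart in such bulk samples. Klf15 fell by 2.69 at 12 h (SE 0.25, adjusted p = 1.10e-04), with a mean of 292 ± 75.2 against 2198 ± 508 in normal liver (SD, n = 2 each, 7.52-fold lower). It fell by 1.25 at 4 h and 1.86 at 8 h, and by 1.12 at 36 h and 1.24 at 48 h (adjusted p of 0.0214, 8.24e-04, 0.0267 and 0.0210). At 72 h, with a mean of 1063 ± 198 (SD, n = 2), it did not pass (limma adjusted p = 0.0600).

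The falls at 8 and 12 h passed in every alternative fit, with changes of -2.09 to -1.61 and -2.92 to -2.21. Those at 4, 36 and 48 h depended on replicate 2 of normal liver (-1.02, -0.89 and -1.01 when it was left out) and on each array of their own time (-1.33 and -1.17 at 4 h, -1.10 and -1.13 at 36 h, -1.24 and -1.24 at 48 h). With the block the 36 h value was -1.07 (adjusted p = 0.0509). Between 12 and 36 h Klf15 rose again by 1.57 (SE 0.25, adjusted p = 0.00426), one of 4.40% of probe sets that differed between those times, but not without the 4 arrays.

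Klf9, a related zinc finger protein induced by glucocorticoids and thyroid hormone, followed another course. It read 3475.0 and 3769.2 in normal liver, 3404.2 and 3128.6 at 4 h, 4053.2 and 4564.9 at 8 h, 3454.7 and 4288.4 at 12 h, 2086.8 and 2108.4 at 36 h, 1954.6 and 1875.7 at 48 h, and 2220.1 and 1977.0 at 72 h. The arrays thus formed an upper set of normal liver and the early times, with 3128.6 the lowest, and a lower set of the late times, with 2220.1 the highest. Against normal liver Klf9 fell by 0.90 at 48 h (SE 0.20, adjusted p = 0.0417), while -0.77 at 36 h and -0.77 at 72 h did not pass (adjusted p of 0.0559 and 0.0768). The 48 h call was lost on leaving out any array other than those of 12 h (-0.96 to -0.84, adjusted p of 0.0633 to 0.257), and under 20 of 28 alternatives in all. From 12 to 36 h Klf9 fell by 0.86 (adjusted p = 0.0350), a call lost in 9 of the 14 fits that leave out 1 array (-0.87 to -0.70, adjusted p of 0.0530 to 0.185), namely without any array of 4, 8, 36 or 72 h or replicate 2 of 12 h.

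Zbtb16 encodes PLZF, a zinc finger repressor that glucocorticoids induce in many cell types. Its brighter probe set read 374.7 and 213.3 in normal liver, 276.6 and 262.9 at 4 h, 257.4 and 381.2 at 8 h, 428.6 and 351.2 at 12 h, 195.6 and 118.6 at 36 h, 358.5 and 252.4 at 48 h, and 330.6 and 278.3 at 72 h. Only the 36 h arrays lay outside the range of normal liver on both replicates, and no test passed (F test adjusted p = 0.237). The dimmer probe set read 91.5 and 71.1 in normal liver, 274.8 and 226.2 at 4 h, 297.8 and 230.9 at 8 h, 216.7 and 155.5 at 12 h, 152.2 and 182.6 at 36 h, 58.9 and 10.5 at 48 h, and 185.2 and 199.1 at 72 h. It rose by 1.15 at 4 h (SE 0.27, adjusted p = 0.0491) and by 1.21 at 8 h (adjusted p = 0.0165), and at 48 h was not above background on either array. The probe sets of Zbtb16 therefore disagree, and no direction is given for the gene.

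Cited2 encodes a coregulator that binds CBP and p300 and in mouse liver supports glucose production together with the Ppargc1a product. Its intensity was 969.0 and 905.2 in normal liver, 206.7 and 107.9 at 4 h, 648.3 and 592.4 at 8 h, 465.5 and 374.3 at 12 h, 311.4 and 562.3 at 36 h, 464.1 and 403.1 at 48 h, and 589.7 and 828.8 at 72 h. Every array after hepatectomy was below normal liver, and the 4 h arrays were the lowest. Cited2 fell by 2.25 at 4 h (SE 0.30, adjusted p = 0.00175), with a mean of 157 ± 69.9 against 937 ± 45.1 in normal liver (SD, n = 2 each, 5.96-fold lower). That fall passed in every alternative fit (-2.59 to -1.43). Its other probe set was at -1.43 (adjusted p = 0.0119), a value that rests on 1 of 2 arrays above background at 4 h. By 8 h Cited2 had risen again, by 1.70 over 4 h (SE 0.30, adjusted p = 0.0195), where 1.42% of probe sets differed between those times. The step was lost without any array of 4 or 8 h (1.36 to 2.04, adjusted p of 0.0666 to 0.221), and the other probe set did not pass it (1.12, adjusted p = 0.0520). At 12 h Cited2 was lower than normal liver by a log2 change of -1.07 (adjusted p = 0.0388), which was lost without any array of normal liver, 8 h or 12 h (-1.20 to -0.93, adjusted p of 0.0564 to 0.154), and under 14 of 28 alternatives in all. The other probe set was at -0.37 at 12 h (adjusted p = 0.340).

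Ppargc1a, the coactivator PGC-1α that drives glucose production and mitochondrial genes in fasting, read 221.1 and 146.8 in normal liver, 336.5 and 316.4 at 4 h, 215.2 and 249.7 at 8 h, 240.9 and 344.7 at 12 h, 257.1 and 215.6 at 36 h, 273.9 and 210.1 at 48 h, and 236.4 and 219.0 at 72 h. The 4 and 12 h arrays lay above both normal arrays and the other times overlapped them. No comparison passed, the largest log2 change being 0.69 at 4 h (SE 0.24, 95% interval 0.16 to 1.21, adjusted p = 0.202). Of its 4 other probe sets, 2 were too dim to be tested and 2 passed at no time.

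Irs2, the insulin receptor substrate that falls under insulin and rises in fasting, read 237.8 and 141.5 in normal liver, 182.5 and 176.3 at 4 h, 276.8 and 295.3 at 8 h, 246.8 and 211.6 at 12 h, 224.0 and 305.0 at 36 h, 169.9 and 136.4 at 48 h, and 101.7 and 180.8 at 72 h. Only the 8 h pair lay wholly above the normal pair. Its log2 changes ran from -0.32 at 72 h (95% interval -0.90 to 0.26) to 0.50 at 8 h (-0.08 to 1.08), and none passed (F test adjusted p = 0.224).

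The early times (4, 8 and 12 h) were also set against the late times (36, 48 and 72 h). Of the 10 genes, 3 were higher early and 2 lower, where 5.96% of all probe sets were higher, 9.92% lower and 15.9% either. Klf9 was higher early by 0.88 (SE 0.12, adjusted p = 3.63e-04), at 3128.6 to 4564.9 with a median of 3754 over 6 early arrays, against 1875.7 to 2220.1 with a median of 2032 over 6 late arrays, with no overlap. Ddit4 was higher early by 0.97 (SE 0.22, adjusted p = 0.0106), at 237.0 to 699.1 with a median of 409, against 80.2 to 374.9 with a median of 175 late. Fkbp5 was higher early by 0.93 (SE 0.18, adjusted p = 0.00394), at 1291.2 to 2856.2 with a median of 1923, against 707.8 to 1873.1 with a median of 788 late. The overlap of Fkbp5 came from the 36 h arrays, which stood with the early times. The other probe set of Fkbp5 did not pass early against late (0.68, adjusted p = 0.179).

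Klf15 was lower early by a log2 difference of -0.81 (SE 0.14, adjusted p = 0.00233), at 239.1 to 929.7 with a median of 562, against 884.6 to 1203.6 with a median of 940 late. Tsc22d3 was lower early by -0.96 (SE 0.22, adjusted p = 0.0120), at 191.7 to 512.8 with a median of 331, against 392.3 to 1270.7 with a median of 695 late. These 2 differences were lost without the 4 arrays (-0.62, adjusted p = 0.117, and -0.78, adjusted p = 0.0960), while those of Klf9, Ddit4 and Fkbp5 passed there too (0.77, 1.24 and 1.11). The next brightest probe set of Tsc22d3 was also lower early, by -0.89 (adjusted p = 0.00132), with no overlap between early and late arrays, but not without the 4 arrays (-0.77, adjusted p = 0.0523). The third probe set of Tsc22d3 did not pass early against late (-0.50, adjusted p = 0.252). Of the 5 other tested probe sets of Klf9, 3 were higher early, by 1.05, 1.26 and 0.89, and 2 did not pass. Muscle and acinar transcripts also differed between early and late arrays, all 17 acinar and 14 of 16 tested muscle markers being higher early, and their part in these results was not tested. At 12 h, where Fkbp5, Klf15 and Cited2 stood at 1.40, -2.69 and -1.07, no acinar and 1 muscle marker passed against normal liver, but other markers did. All 4 tested adipose markers, of 6 on the array, were higher at 12 h (median log2 change 1.73). So were 3 of 4 tested cholangiocyte markers, of 7 on the array (1.58). Of 13 Kupffer cell markers 1 was higher and 5 lower (-0.84). The cholangiocyte list holds Krt8 and Krt18 and the adipose list Cidec and Plin4, and bulk values do not show which cells carried these transcripts. The part of these markers in the 12 h results was not tested either.

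Ordered by mean log2 level, Klf15 ran 12, 8, 4, 48, 36 and 72 h and then normal liver. None of its neighbours in that order passed the test, the widest gap being that between 72 h and normal liver (adjusted p = 0.0600). For Fkbp5 the order was normal liver, 48, 72, 4, 36, 12 and 8 h, with its widest gap (0.99, adjusted p = 0.103) between 72 and 4 h. Cited2 ran 4, 12, 36, 48, 8 and 72 h and then normal liver, with its widest gap (1.19, adjusted p = 0.0628) between 4 and 12 h. No gene of the 10 passed between 8 and 12 h (0.501% of all probe sets), between 36 and 48 h (0.464%) or between 48 and 72 h (0%), where 1, 3 and 0 of them had an unadjusted p under 0.05 in limma. In none of the 10 genes did neighbours in the order of levels pass the test.

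**Figure D3:**
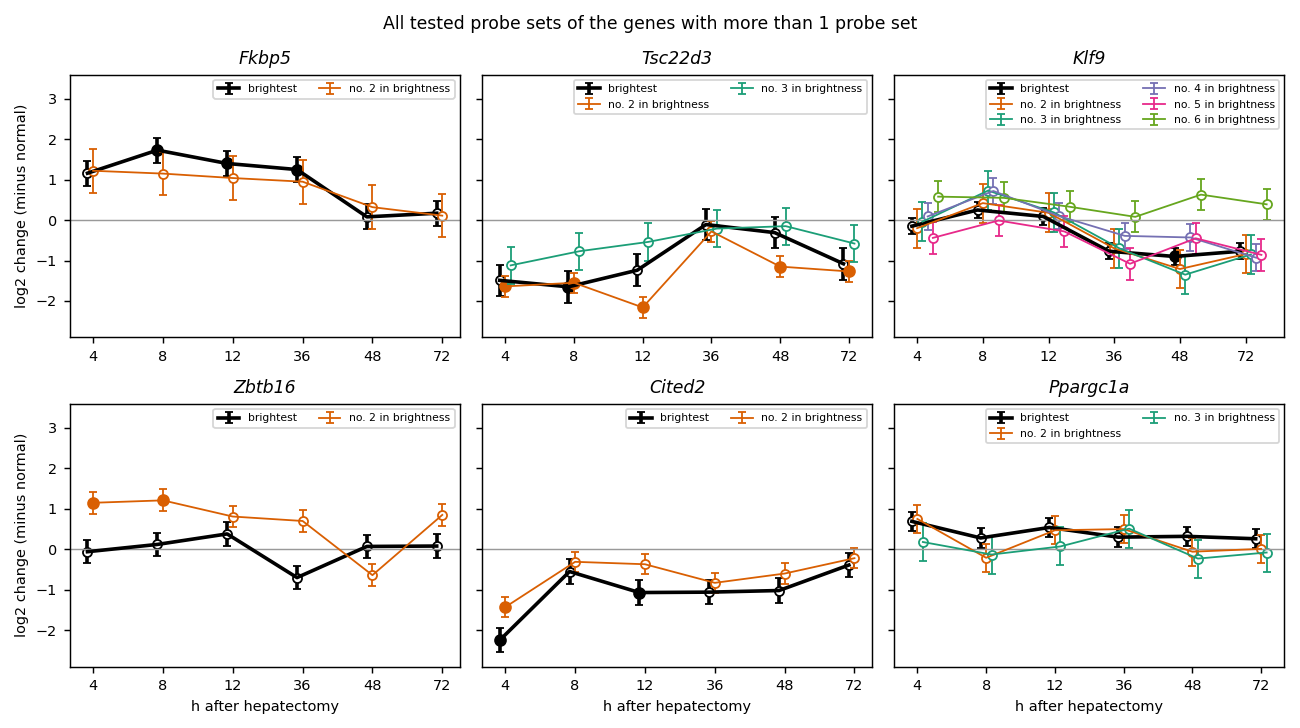
Log2 change relative to normal liver (vertical axis, bars are SE) by h after hepatectomy for each tested probe set of the 6 genes that have several, with filled points where limma's test passed. The black line is the brightest probe set. Both probe sets of Cited2 passed at 4 h (-2.25 and -1.43), while those of Zbtb16 stood at -0.06 and 1.15.

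**Figure D4:**
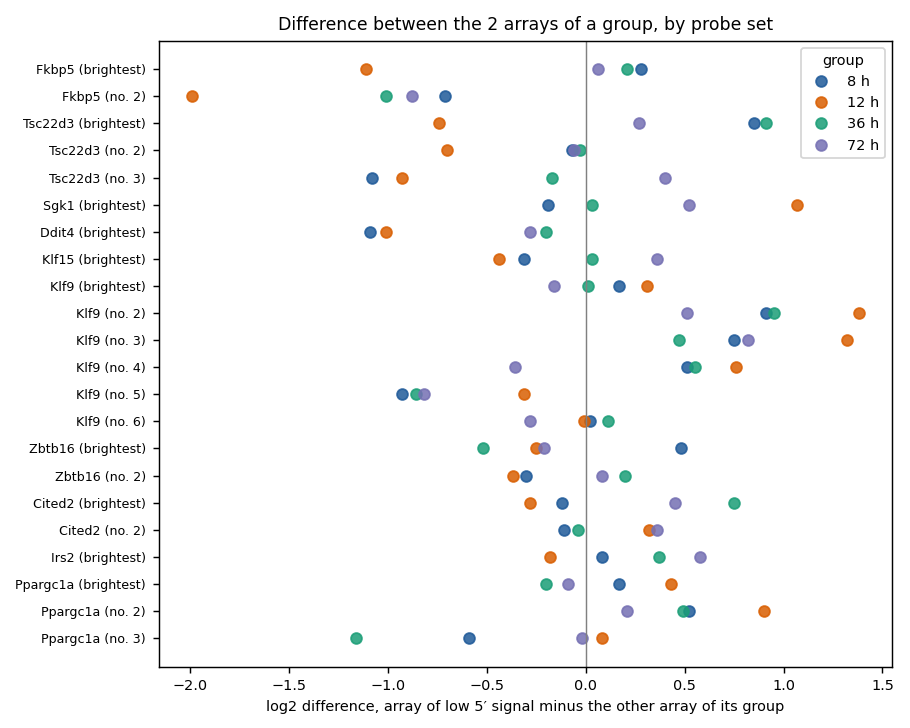
Log2 difference between the 2 arrays of a group, the array with the low 5′ control signal minus the other, for each tested probe set (rows) in the 4 groups that hold such an array (colours). The less bright probe set of Fkbp5 and that of Ddit4 are below 0 in all 4 groups, and Klf9 has probe sets above 0 in all 4 groups and 1 below 0 in all 4.

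Probe sets of one gene differed in how far the arrays with a low 5′ control signal departed from their partners. For Klf9 the next 2 in brightness were higher in all 4 such arrays (by 0.94 and 0.84 on average in log2), while the fifth was lower in all 4 (-0.73). The brightest one differed by 0.08 on average. The brightest Fkbp5 probe set differed by -0.14 and the other by -1.15, and Ddit4 differed by -0.64. Klf15, with a mean difference of -0.09, and Cited2, with 0.20, lay below 0 in 2 of 4 groups each.

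The genes most alike in pattern over the 14 arrays are given for the 6 members that passed the F test, by Pearson r of log2 intensity. These r describe arrays that share groups and come with no test. For Fkbp5 they were Alas1, the rate-limiting enzyme of haem synthesis (0.952), Osmr, the oncostatin M receptor (0.934), and Pfkfb3, an enzyme that stimulates glycolysis (0.931). Klf15 was most like Hes6, a transcriptional cofactor (0.940), Pttg1ip (0.938) and St13, an Hsp70 cochaperone (0.928). Klf9 was most like Tgoln1, a protein of the trans-Golgi network (0.894), Ecm1, a matrix protein (0.892), and its relative Klf10 (0.885). Ddit4 was nearest to the glycine transporter Slc6a9 (0.878), the carnitine transporter Slc22a5 (0.854) and the lysosomal membrane protein Scarb2 (0.846). Tsc22d3 was nearest to Tor1aip2 (0.871), Tmem42 (0.868) and Ldah (0.853), and Cited2 to Slc66a2 (0.866), Rnasek (0.865) and Rbm5 (0.843). Of the genes named, Slc6a9, Scarb2, Tgoln1, Tor1aip2, Tmem42, Rnasek and Rbm5 did not pass the F test (adjusted p of 0.0503 to 0.708). The members themselves were left out of this search. Between members the highest r was 0.7, of Fkbp5 with Ddit4 and with Irs2.

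The receptor and its machinery were read beside these genes. For the list counts here and below, the share of all probe sets that passed was 2.42% at 4 h, 9.59% at 8 h and 12.2% at 12 h. At the later times it was 4.17% at 36 h, 2.32% at 48 h and 2.49% at 72 h. The lists were not tested as sets. Nr3c1, the glucocorticoid receptor, averaged 425 ± 43.3 at 4 h and 443 ± 66.8 at 12 h, against 959 ± 195 in normal liver (SD, n = 2 each). It fell by 1.07 at 4 h (adjusted p = 0.0408) and 1.01 at 12 h (adjusted p = 0.0185), and -0.79 at 8 h did not pass (adjusted p = 0.0600). Hsd11b1, the enzyme that regenerates active glucocorticoid in liver, fell late, by 1.63 at 36 h, 1.53 at 48 h and 1.57 at 72 h (adjusted p of 0.00724, 0.0132 and 0.0110). Fkbp4, the cochaperone that opposes Fkbp5 at the receptor, fell by 1.77 at 8 h and 2.15 at 12 h (adjusted p of 0.0177 and 0.00562), times at which Fkbp5 rose. Hsp90aa1 rose by 1.30 at 12 h (adjusted p = 0.00872). Serpina6, the corticosteroid-binding globulin of blood, fell by 1.16 at 12 h and 1.26 at 36 h (adjusted p of 0.0331 and 0.0457). Nr3c1 and Serpina6 did not pass the F test (adjusted p of 0.0620 and 0.0638). Of the 12 tested genes of this list, 0 rose and 1 fell at 4 h, 0 and 2 at 8 h, 2 and 4 at 12 h, 1 and 2 at 36 h, 0 and 1 at 48 h, and 0 and 1 at 72 h.

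Other genes known to be induced by glucocorticoids rose at the early times where they changed, with 1 exception. Of 20 tested, 8 rose and 0 fell at 4 h, 9 rose and 1 fell at 8 h, 10 rose and 0 fell at 12 h, 7 rose and 3 fell at 36 h, 3 rose and 3 fell at 48 h, and 4 rose and 3 fell at 72 h. Their median log2 change was 1.03, 0.69, 1.10, 0.13, -0.05 and -0.07 in that order of times. Many of them also answer inflammatory cytokines, as Lcn2 and Mt2 do. Per1, a clock gene with a glucocorticoid response element, read 1079.5 and 1465 at 12 h, against 38 and 126 in normal liver, where 1 of 2 arrays was above background. It rose by 1.89 at 8 h and 3.32 at 12 h (adjusted p of 0.0366 and 0.00177). Sult1e1, oestrogen sulfotransferase, was not above background in normal liver and was at least 6.4-fold higher at 8 h, 16.7-fold at 12 h and 34.5-fold at 36 h (adjusted p of 0.00627, 6.46e-04 and 2.18e-04). Gadd45g, a growth arrest gene, fell by 2.20 at 36 h and 2.93 at 48 h (adjusted p of 0.0107 and 0.00194). At 72 h, above background on 1 of 2 arrays, it was at -4.23 (adjusted p = 1.17e-04). Tat, tyrosine aminotransferase, the classical hormone-induced liver enzyme, passed at no single time and was higher early than late by 1.03 (adjusted p = 2.42e-04).

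Genes of glucose production and fasting gave mixed directions. Of 18 tested, 3 rose at 4 h, 2 rose and 2 fell at 8 h, 3 rose and 2 fell at 12 h, 1 rose at 36 h, and 1 fell at each of 48 and 72 h. G6pc, glucose-6-phosphatase, fell by 3.22 at 8 h, 2.93 at 12 h and 2.34 at 72 h (adjusted p of 0.00116, 0.00187 and 0.0162). Pck1, the gluconeogenic enzyme most closely tied to Ppargc1a, passed at no time, and its 12 h arrays read 7783.2 and 1027.5. Pdk4, which spares glucose in fasting, rose by 4.91 at 4 h, 3.23 at 8 h and 3.91 at 12 h (adjusted p of 6.84e-04, 0.00450 and 0.00137). Fgf21, a fasting hormone of the liver, was not above background in normal liver and was at least 3.88-fold higher at 4 h, 8.03-fold at 12 h and 10.4-fold at 36 h (adjusted p of 0.0309, 0.00110 and 9.47e-04). Igfbp1, which insulin represses, was at 1.99 at 4 h, which did not pass (adjusted p = 0.0524), and fell by 2.02 at 48 h (adjusted p = 0.0497). It was higher early than late by 2.69 (adjusted p = 4.25e-05). Foxo1 and Ppargc1b passed at no time.

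The insulin and mTORC1 list holds the partners of Irs2 and Ddit4. Of its 22 tested genes, 1 rose at 4 h, where 2.42% of all probe sets passed. At 8 h (9.59%) and again at 12 h (12.2%) 2 rose and 2 fell, and 0 passed later. Irs1, the other main insulin receptor substrate of liver, fell by 1.54 at 8 h (adjusted p = 0.00828), when Irs2 was at 0.50 and did not pass. Deptor, an mTOR inhibitor, fell by 1.5 at 12 h (adjusted p = 0.0186). The sestrins, which restrain mTORC1, split at 12 h, with Sesn2 up by 1.20 and Sesn3 down at -1.61 (adjusted p of 0.0180 and 0.0167). Sesn3 was above background on 1 of 2 arrays at 12 h. By the F test, Deptor and Sesn2 did not pass (adjusted p of 0.148 and 0.089). Lipogenic genes that insulin induces fell where they changed, 3 of 11 at 8 h, 5 at 12 h and 3 at 36 h, then 2 at 48 h and 1 at 72 h. Srebf1, their master regulator, fell by 2.09 at 8 h and 1.87 at 12 h, Mlxipl, the carbohydrate-response factor, by 2.03 and 2.11, and Acly, ATP citrate lyase, by 1.95 at 12 h. Thrsp fell by 1.76 at 36 h and 2.10 at 48 h.

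Amino acid breakdown is the pathway that Klf15 is best known to promote in liver. Of its 18 tested genes, 0 passed at 4 h, 1 rose and 5 fell at 8 h, 1 rose and 4 fell at 12 h, 4 fell at 36 h, 2 at 48 h and 1 at 72 h. Hal, histidine ammonia lyase, fell by 1.52 at 8 h and 3.0 at 12 h, and by 1.97 at 36 h and 1.36 at 48 h (adjusted p of 0.00969, 2.05e-04, 0.00426 and 0.0424). Prodh, proline dehydrogenase, fell by 1.46, 1.60, 1.55 and 1.15 at these times (adjusted p of 0.00386, 0.00196, 0.00468 and 0.0337). Prodh2 fell by 1.32 at 8 h and 1.89 at 36 h, and Otc, a urea cycle enzyme, by 0.84 at 12 h and 1.35 at 36 h.

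Relatives of the 10 genes were read the same way, 21 of them tested. Of these, 1 fell at 4 h, 2 rose and 3 fell at 8 h, 4 rose and 2 fell at 12 h, 1 rose and 1 fell at 36 h, and 1 fell at each of 48 and 72 h. Tsc22d1, the paralog of Tsc22d3, fell at all 6 times, by 1.45 at 4 h, 2.18 at 8 h and 2.54 at 12 h, then by 1.74 at 36 h, 1.73 at 48 h and 1.15 at 72 h (adjusted p from 2.32e-04 to 0.0445). Klf6 rose by 2.34 at 12 h (adjusted p = 0.0321), and its 12 h arrays read 186.4 and 1441.7. It did not pass the F test (adjusted p = 0.164).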

How the data were processed

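Liver RNA of 7 groups of 2 arrays was measured on 1-colour arrays. The deposited values are intensities on a linear scale, 1 per probe set, and the sources used here do not name the software behind them. Array means, trimmed of 2 percent at each end, lay at 500.2 to 500.3, so the authors' deposited intensities had been scaled to each other. Per the series' design text, the authors took genes that differed 2-fold from normal liver. Median intensity per array was 127.8 to 233.1. Precision is limited by how few arrays there are.

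Gene names came from the array annotation. Of 22626 probe sets that are not controls, 20380 have 1 symbol, 691 several and 1555 none. Tests used log2(intensity + 57), where 57 is the 25th percentile and understates changes of dim probe sets, and probe sets with a mean of at least 128.8, the 40th percentile, were tested (13576, for 8453 genes). All 10 brightest and 22 of 25 probe sets of the members passed this filter. The limma 3.58.1 model (R 4.3.3) held the 7 groups of arrays, with 7 residual and 5.08 prior degrees of freedom. Benjamini-Hochberg adjustment was done per contrast, with a threshold of 0.05. Contrasts were each time against normal liver, early against late times and the 5 consecutive steps, with an F test over the 6 times. The procedure was tested on simulated data. "At least" folds use the mean log2 of the higher of background and own value in normal liver. All comparisons with normal liver share its 2 arrays.

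The genes named are the 10 members, 10 landmark genes and up to 4 called genes of each list by largest change. For each member passing the F test, the 3 genes of highest r outside the members are named too. The members and lists were chosen with earlier results of these data known. Promoter windows are those of RefSeq (GRCm38.p6), and Zbtb16 has no entry there. Alternatives were a pseudocount of 14.25 or 228, quantile normalization, leaving out the filter or raising it to the 60th percentile, array weights, an intensity trend, blocking on replicate number, the processing group (the 4 arrays with pyruvate carboxylase 5′ signal under 0.2 of 3′) as a block or left out, the next brightest probe set, only the arrays compared, 2-fold without a test, and each array left out. Added after seeing the data were the next brightest probe set with the processing block, and a fit without the 4 and 8 h arrays.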

Additional observations from a re-analysis of the deposited data

Results flagged for a closer look

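These differences between time points passed the test of the difference itself, in limma with Benjamini-Hochberg adjustment. Early over late times, Fkbp5 differed by 0.93, Ddit4 by 0.97 and Klf9 by 0.88 on the log2 scale, and Tsc22d3 by -0.96 and Klf15 by -0.81. Between consecutive times, Cited2 differed by 1.70 at 8 h over 4 h. Klf15 differed by 1.57 and Klf9 by -0.86 at 36 h over 12 h, in opposite directions. These steps were all lost without the 4 arrays of low 5′ control signal, and so were the early against late differences of Tsc22d3 and Klf15. The steps of Cited2 and Klf9 were also lost in some of the fits that leave out 1 array. With 2 arrays per group, no test singles out an array within a group, and arrays that differ from their partner are described by their values in the report.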

How the results depend on the processing

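Of the 20 calls of members, 18 to 20 were kept under quantile normalization, a 60th percentile filter, no filter, a pseudocount of 228, an intensity trend, the replicate block and the processing block, 17 with a pseudocount of 14.25 and 16 with array weights. The next brightest probe set kept 12 (15 with the processing block), only the arrays compared 11, and the fit without the processing group 9. The fit without the 4 and 8 h arrays kept 3 of the 9 calls it could give. Calls kept in all alternatives that have a test were Cited2 at 4 h, Klf15 at 8 and 12 h, and Ddit4 and Klf9 early against late, of which Klf9 (1.87-fold by means) did not reach 2-fold. Klf15 and Ddit4 have 1 probe set each, so the alternatives with the next brightest probe set used the same one and could not check it. All their calls are therefore among the 12 kept with the next brightest probe set. Of genes with another probe set, that setting kept Cited2 at 4 h, Tsc22d3 at 8 h, and Tsc22d3 and Klf9 early against late. It lost every Fkbp5 call, and the other calls of Klf9 and Cited2. The count at 36 h was 2 in the fit as reported. It was 1 with a pseudocount of 14.25, without a filter, with the replicate block, and with the next brightest probe set with or without the processing block. It was 5 with a pseudocount of 228 or the 60th percentile filter, 4 at 2-fold without a test, and 0 with the processing block, without the processing group, without the 4 and 8 h arrays, or with only the arrays compared. At 4 h the 2 became 1 without the processing group or with only the arrays compared, 4 with the next brightest probe set with or without the processing block, and 5 at 2-fold. At 12 h the 3 became 1 with only the arrays compared. At 48 h the 2 became 1 under quantile normalization or a pseudocount of 14.25, and 0 with array weights, without the processing group, without the 4 and 8 h arrays or with only the arrays compared. At 72 h the 0 became 2 with a pseudocount of 228, the 60th percentile filter or an intensity trend, 1 with the next brightest probe set with or without the processing block, and 3 at 2-fold. The F test count of 6 and the early against late count of 5 both became 3 without the processing group, and the early against late count was 2 at 2-fold. The 3 consecutive steps became 0 without the processing group, 1 with only the arrays compared and 5 at 2-fold. Leaving out 1 array gave 4 to 7 for the F test, 1 to 3 at 4 h, 2 to 3 at 8 h, 2 to 4 at 12 h, 0 to 4 at 36 h, 0 to 2 at 48 h, 0 to 1 at 72 h, 5 to 6 early against late and 1 to 4 for the steps. The lone array is then assumed to vary like the other groups. Zbtb16 at 4 h turned direction with its dimmer probe set (1.15, against -0.06). Causes were not tested. The overall median shifted by -0.12 at 48 h under quantile normalization, and by at most 0.10 at other times. Arrays of the same number deviated together weakly (r of -0.19 to 0.53 over 21 pairs of groups, over 0.1 in 9), with all 7 groups correlating best with their own number, which is a hint of something shared. The 4 arrays of the processing group are all replicate 2. The labels link no arrays by number and not every pair exceeded 0.1, so the numbers were not taken as pairs. The replicate block changed no count but that at 36 h by more than 1.5 times. With 2 arrays per group, changes near 1 in log2 from normal liver can miss the threshold. In the simulated data, 30% of 100 probe sets changed by 1 at 8 h passed, and 79% of 100 changed by 2. Fewer probe sets were changed there than the 1302 called at 8 h in the real data.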
